A study of Homo sapiens with 8 samples.

Results

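The input RNA of METTL14-knockdown neuroblastoma cells was compared with that of control cells over 20312 genes. A gene entered when it had at least 10 counts in each of the 4 input libraries, which 20312 of the 56303 genes in the table did. The cells were SK-N-BE(2), an established human neuroblastoma line that carries an amplified MYCN gene. They were transduced with a lentiviral shRNA construct, either a control hairpin (sh-NC) or a hairpin against METTL14 (shMETTL14), and kept as stable lines after puromycin selection. Each arm had 2 cultures, and each culture gave an input library and an m6A immunoprecipitation (IP) library, 8 libraries in all. The labels do not say whether shMETTL14 1 and 2 were repeats of 1 hairpin or 2 hairpins, nor that the cultures were grown apart. The p-values set the difference between arms against the spread between these libraries, and that spread may be partly technical. The question addressed here was which transcripts changed in amount after knockdown, grouped by function.

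METTL14 is the partner of METTL3 in the nuclear complex that methylates adenosines of mRNA at the N6 position (m6A). METTL14 holds the RNA while METTL3 carries the catalytic site, and reader proteins such as the YTH family bind the mark and alter splicing, export, translation or decay of the transcript. Neuroblastoma arises from the sympathoadrenal lineage of the neural crest. Its cells occupy an adrenergic state, marked by catecholamine enzymes and factors such as HAND2 and GATA3, or a mesenchymal state that resembles migrating crest cells.

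Input libraries held 34597524 and 34550154 counts in the sh-NC arm and 40381516 and 39918795 counts in the shMETTL14 arm. Levels are given as CPM (counts scaled to the library total, not to gene length) with TMM scaling factors, and changes as log2 of shMETTL14 over sh-NC from edgeR's quasi-likelihood fit, with the standard error (SE) of the fit, n = 2 libraries per arm. All 10 neuroblast markers looked at (among them PHOX2A, HAND2, GATA3, ISL1, MYCN, DBH, TH and CHGA) were among the 20312 genes. Their summed level, scaled to the library total without TMM factors as are all marker sums here, was 6138 to 6314 CPM in the control libraries and 6512 to 6615 CPM after knockdown. On the same scale MYCN made up most of it (4600 and 4410 CPM in controls, 4524 and 4476 CPM after knockdown), so the sum says little of the other markers. Of 5 endothelial, 7 immune, 6 Schwann cell and 5 epithelial markers, 2, 3, 2 and 4 reached 10 counts in each library, and no list of these summed above 22.2 CPM in any library; CDH19, MS4A1 and LYZ were at 0 in all 4. The immune sum was 18.8 to 22.2 CPM in controls and 14.4 to 16.6 CPM after knockdown, with CD68 called lower. CD68 made up most of it (20.1 and 16.6 CPM in controls, 12.9 and 14.6 CPM after knockdown). Of the exonic bases of CD68, 85.8% are shared with other genes. The epithelial sum was 19.2 to 20.8 CPM in controls and 16 to 17.1 CPM after knockdown, with KRT18 and KRT19 called lower. KRT18 had 38 and 24 counts in controls and 11 and 16 after knockdown. None of these calls held in every fit with 1 library left out. In bulk RNA, fewer cells of a kind and less RNA per cell cannot be told apart.

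After knockdown 2545 of the 20312 genes (12.5%) rose and 2681 (13.2%) fell at an adjusted p under 0.05, 25.7% together. The libraries of the 2 arms did not overlap in any of these 5226 genes. A lack of overlap given for a called gene therefore adds nothing to its call. Most changes were small. The median change of the genes that rose was 1.23-fold, and the median of those that fell was a ratio of 0.796. A log2 change of at least 1 was reached by 118 of the genes that rose and 127 of those that fell. Over all members the median log2 change was 0.00. Scaling to library totals with TMM factors places it near 0, so a change in the total amount of mRNA would not show here. The counts leaned on both knockdown libraries: without shMETTL14 culture 1, 1531 genes rose and 1692 fell, and without culture 2, 1464 rose and 1780 fell. Without the filter on low counts 1074 rose and 1070 fell.

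**Figure D1:**
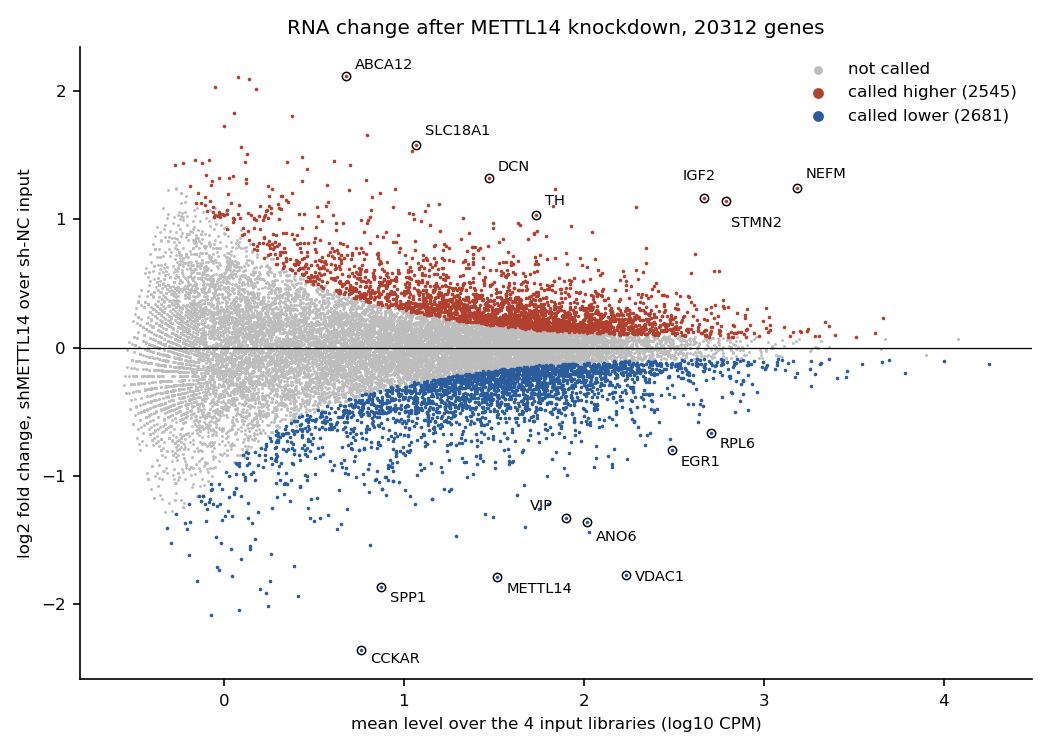
Each point is 1 of the 20312 genes, with its mean input level (log10 CPM, x axis) and its log2 fold change after METTL14 knockdown (y axis); red genes were called higher, blue genes lower and grey genes were not called. The cloud narrows to the right, NEFM and STMN2 stand out among abundant genes that rose, and CCKAR is the lowest labelled point.

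The 44 function lists held 2061 gene names, of which 1838 were members. In 23 lists more members fell than rose, in 16 more rose than fell and in 5 the numbers were equal. At the ends of that order stood neuronal cytoskeleton genes, in which 21 of 25 members rose and 0 fell, and DNA replication genes, in which 34 of 50 fell and 1 rose. No test was made over a list, and a list's counts are read beside the 12.5% and 13.2% of all members. Those shares are not matched for level. In the lowest of 5 equal bins of mean level 1.58% of genes rose and 1.72% fell, and in the highest 24.8% and 23.8%. A list of abundant genes can therefore pass the shares of all members in both directions.

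METTL14 itself (chr4:118685368-118715433, plus strand, GRCh38) had 51.6 and 50.9 CPM in the sh-NC libraries and 14.3 and 15.3 CPM in the shMETTL14 libraries. Both knockdown libraries lay far below both controls, a 3.45-fold fall (log2 fold change -1.79 ± 0.07, edgeR adjusted p = 1.28e-15). No other member of the writer complex was called lower. Of the 12 members of that list, METTL14 alone fell and 2 rose, RBM15B (log2 fold change 0.50 ± 0.04, edgeR adjusted p = 5.8e-09), an RNA-binding adaptor, and KIAA1429 (log2 fold change 0.25 ± 0.04, edgeR adjusted p = 2.3e-05), the scaffold also called VIRMA. RBM15B shares 20.0% of its exonic bases with another gene. METTL3 and WTAP, named here after their values were seen, had log2 fold changes of 0.01 ± 0.05 and -0.05 ± 0.05, neither past the test. Of 14 erasers and readers 2 rose and 2 fell, shares near those of all members, and 0 and 1 without either shMETTL14 culture or without the filter on low counts. HNRNPA2B1, an RNA-binding protein, and YTHDC1, the nuclear reader, rose by 0.09 ± 0.03 and 0.12 ± 0.04 on the log2 scale, and IGF2BP3, another reader, had a log2 change of -0.13 ± 0.04 (called). YTHDF3, a cytoplasmic reader, fell from 60.5 and 61.7 CPM to 49.3 and 50.9 CPM (log2 fold change -0.29 ± 0.05, edgeR adjusted p = 0.000136).

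Transcription factors of the adrenergic state rose more often than they fell. Of 19 members 11 rose, 0 fell and 8 did not pass the test, with a median log2 change of 0.29. GATA2, a zinc finger factor of sympathetic neurons, had 164 and 164 CPM in the sh-NC libraries and 278 and 283 CPM in the shMETTL14 libraries, with no overlap between arms (log2 fold change 0.77 ± 0.04, edgeR adjusted p = 6.4e-14). HAND1, a basic helix-loop-helix factor, rose from 29.8 and 29.8 CPM to 42.6 and 40.3 CPM (log2 fold change 0.48 ± 0.06, edgeR adjusted p = 2.05e-06). ISL1, a LIM homeodomain factor of sympathetic neurogenesis, rose from 20.8 and 21.1 CPM to 31.0 and 26.4 CPM (log2 fold change 0.45 ± 0.08, edgeR adjusted p = 0.000102). MYCN, the amplified oncogene of this line and the list's member of highest CPM, had 4636 and 4405 CPM in the sh-NC libraries and 4516 and 4471 CPM in the shMETTL14 libraries. Its libraries overlapped and its log2 change was -0.01 ± 0.03 (not called).

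Catecholamine and granule genes moved both ways. The list had 9 members that rose, 5 that fell and 8 that did not pass, and the 5 falls became 3 without shMETTL14 culture 2. SLC18A1, the vesicular monoamine transporter that loads catecholamines into granules, went from 6.03 and 5.67 CPM to 17.4 and 17.5 CPM, a 2.98-fold rise (log2 fold change 1.58 ± 0.10, edgeR adjusted p = 3.67e-11). TH, the rate-limiting enzyme of catecholamine synthesis, showed 72.2 and 73.4 CPM after knockdown against 34.0 and 37.2 CPM in the controls. Both knockdown values were above both controls and the rise was 2.05-fold (log2 fold change 1.03 ± 0.05, edgeR adjusted p = 7.94e-13). DBH, which turns dopamine into noradrenaline, rose from 2.48 and 2.43 CPM to 4.67 and 4.10 CPM (log2 fold change 0.84 ± 0.18, edgeR adjusted p = 0.000868). SLC6A2, the noradrenaline reuptake carrier, and CHGA, the granule protein chromogranin A, were named after their values were seen and rose by 0.82 ± 0.06 and 0.58 ± 0.03 on the log2 scale (edgeR adjusted p = 9.27e-10 and 2.13e-12); SLC6A2 shares 17.9% of its exonic bases. PCSK1, the prohormone convertase that cuts peptide precursors, fell from 9.55 and 9.19 CPM to 4.30 and 5.30 CPM (log2 fold change -0.96 ± 0.13, edgeR adjusted p = 5e-06). CPE and SCG3, a carboxypeptidase and a granin-binding protein of the granule, fell as well (-0.32 ± 0.04 and -0.42 ± 0.05 on the log2 scale).

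Neuropeptides and their receptors held the deepest fall among all named genes. CCKAR, a receptor for cholecystokinin, had 9.50 and 9.92 CPM in the sh-NC libraries and 1.73 and 2.05 CPM in the shMETTL14 libraries. Both knockdown libraries lay well under both controls, a 5.13-fold fall (log2 fold change -2.36 ± 0.15, edgeR adjusted p = 2.86e-11). VIP, a vasoactive peptide made by sympathetic neuroblasts, fell from 116 and 112 CPM to 46.1 and 44.8 CPM, 2.50-fold (log2 fold change -1.32 ± 0.05, edgeR adjusted p = 4.18e-16). NPY, a peptide stored with noradrenaline, went the other way, from 49.5 and 48.2 CPM to 68.4 and 66.6 CPM (log2 fold change 0.47 ± 0.05, edgeR adjusted p = 1.36e-07). In all, 3 of the 12 members rose, 1 without shNC culture 1, and 3 fell.

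Genes of the neuronal cytoskeleton and of neurite growth rose almost throughout, 21 of 25 with 0 falling and a median log2 change of 0.33. NEFM, the medium neurofilament chain (chr8:24913012-24919098, plus strand), had 936 and 887 CPM in the sh-NC libraries and 2176 and 2139 CPM in the shMETTL14 libraries. The shMETTL14 libraries lay close together and far above the controls, a 2.37-fold rise (log2 fold change 1.24 ± 0.03, edgeR adjusted p = 4.75e-19). In NEFM 38.9% of exonic bases are shared with the gene GS1-72M22.1. STMN2, a microtubule regulator of growth cones that shares no exonic base, had 387 and 380.2 CPM in the sh-NC libraries and 845 and 847 CPM in the shMETTL14 libraries and rose 2.20-fold (log2 fold change 1.14 ± 0.03, edgeR adjusted p = 3.36e-18). DCX, a microtubule-binding protein of migrating neuroblasts, rose from 38.9 and 37.3 CPM to 71.6 and 71.5 CPM (log2 fold change 0.91 ± 0.05, edgeR adjusted p = 2.87e-12). MAP1B, the list's member of highest CPM and a stabiliser of axonal microtubules, rose by a small step, from 2209.8 and 2141 CPM to 2469 and 2413 CPM (log2 fold change 0.17 ± 0.03, edgeR adjusted p = 7e-05). Named after their values were seen, the tau gene MAPT rose by 0.89 ± 0.05, the neuronal tubulin TUBB3 by 0.59 ± 0.03 and the light neurofilament chain NEFL by 0.48 ± 0.04 on the log2 scale. TUBB3 shares 35.8% and NEFL 11.3% of exonic bases with other genes.

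Synaptic and channel genes rose in part. Among 28 synaptic vesicle members 12 rose and 2 fell, the falls numbering 4 without shNC culture 1 and 1 without shMETTL14 culture 1. RAB3A, a small GTPase of vesicle docking, rose from 14.9 and 17.3 CPM to 29.0 and 31.0 CPM (log2 fold change 0.90 ± 0.08, edgeR adjusted p = 6.45e-09), and PCLO, a scaffold of the active zone, rose from 84.6 and 77.5 CPM to 115 and 117 CPM (log2 fold change 0.52 ± 0.05, edgeR adjusted p = 6.42e-09). SV2A, a vesicle glycoprotein, fell from 107 and 108 CPM to 89.3 and 91.6 CPM (log2 fold change -0.25 ± 0.04, edgeR adjusted p = 9.24e-05). For the 31 voltage-gated channels the counts were 10 and 2. CACNA1B, the N-type calcium channel, rose from 21.3 and 22.1 CPM to 33.9 and 33.3 CPM (log2 fold change 0.63 ± 0.07, edgeR adjusted p = 1.34e-07), and SCN9A, a sodium channel of sympathetic neurons, fell from 56.5 and 54.4 CPM to 36.7 and 38.1 CPM (log2 fold change -0.57 ± 0.05, edgeR adjusted p = 2.8e-08). KCNH2, the channel gene of highest CPM, had overlapping libraries and a log2 change of -0.01 ± 0.04. Axon guidance genes were divided, 14 of 52 higher and 13 lower, though the rises numbered 8 without shMETTL14 culture 1. EFNB2, a membrane ligand of Eph receptors, rose from 6.85 and 6.16 CPM to 11.3 and 11.6 CPM (log2 fold change 0.82 ± 0.11, edgeR adjusted p = 5.43e-06), while PLXND1, a semaphorin receptor, fell from 108 and 111 CPM to 69.6 and 70.5 CPM (log2 fold change -0.64 ± 0.04, edgeR adjusted p = 6.98e-11) and the repellent SLIT3 fell from 299 and 294 CPM to 212 and 213 CPM (log2 fold change -0.48 ± 0.03, edgeR adjusted p = 1.75e-10).

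Mesenchymal state genes fell. Of 18 members 12 fell, 2 rose and 4 did not pass, with a median log2 change of -0.21. VIM, the intermediate filament vimentin, had 1992 and 2065 CPM in the sh-NC libraries and 1648 and 1642 CPM in the shMETTL14 libraries and fell by 0.30 on the log2 scale (edgeR adjusted p = 1.5e-08); it shares 24.4% of its exonic bases with VIM-AS1. AEBP1, a matrix-associated carboxypeptidase-like protein, fell from 109 and 110.0 CPM to 68.2 and 68.6 CPM (log2 fold change -0.68 ± 0.04, edgeR adjusted p = 2.73e-11). The crest factors SOX9 and SNAI2 fell too, SOX9 from 18.0 and 20.7 CPM to 13.6 and 11.4 CPM (log2 fold change -0.63 ± 0.10, edgeR adjusted p = 2.36e-05) and SNAI2 from 28.3 and 28.3 CPM to 19.6 and 18.5 CPM (log2 fold change -0.57 ± 0.07, edgeR adjusted p = 1.58e-06). The 2 that rose were FOSL1 (0.51 ± 0.13), an AP-1 subunit, and BHLHE41 (0.59 ± 0.18), a repressor with a circadian role. FOSL1 did not pass without shNC culture 1 or shMETTL14 culture 2 (edgeR adjusted p = 0.0555 and 0.131), and BHLHE41 did not pass without shNC culture 2 or either shMETTL14 culture (edgeR adjusted p = 0.0865, 0.103 and 0.0759).

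Matrix and integrin genes shared that direction, with 21 of 40 lower, 5 higher (2 without either shMETTL14 culture) and a median of -0.25. COL6A3, a chain of the microfibrillar type VI collagen, had 58.8 and 59.2 CPM in the sh-NC libraries and 26.5 and 26.7 CPM in the shMETTL14 libraries. The arms were far apart and the fall was 2.22-fold (log2 fold change -1.15 ± 0.06, edgeR adjusted p = 2.08e-13). ITGA2, an integrin subunit for collagen, fell from 11 and 11.1 CPM to 5.71 and 5.93 CPM (log2 fold change -0.92 ± 0.11, edgeR adjusted p = 1.41e-06). LAMB1, a laminin chain and the gene of highest CPM in the list, fell from 478 and 458 CPM to 374 and 375 CPM (log2 fold change -0.32 ± 0.03, edgeR adjusted p = 6.8e-08), whereas SPARC, a collagen-binding matricellular protein, rose from 277 and 279 CPM to 331 and 333 CPM (log2 fold change 0.26 ± 0.03, edgeR adjusted p = 2.24e-06). Fibroblast markers did not move together: DCN and LUM, small matrix proteoglycans, rose by 1.33 ± 0.07 and 0.67 ± 0.08, COL1A1 fell by 0.67, and the summed level of the 8 markers was 692 to 720 CPM in controls and 711 to 722 CPM after knockdown. In the TGF-beta and BMP list 11 of 30 members fell and 2 rose, the falls numbering 7 without either shMETTL14 culture and 4 without the filter on low counts. TGFBR3, the co-receptor betaglycan, fell from 4.6 and 5.20 CPM to 1.90 and 2.00 CPM (log2 fold change -1.33 ± 0.18, edgeR adjusted p = 4.64e-06).

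Immediate early genes, the first transcripts induced by growth factor and serum signals, were lower in 18 of 34 cases and higher in 3, with a median log2 change of -0.24. EGR1, a zinc finger factor and the member of highest CPM, had 401 and 383 CPM in the sh-NC libraries and 225 and 226 CPM in the shMETTL14 libraries. Control and knockdown values were clearly apart, a 1.74-fold fall (log2 fold change -0.80 ± 0.03, edgeR adjusted p = 2.57e-14). IER3, an early response survival gene with 26.5% of exonic bases shared, fell from 231 and 226 CPM to 154 and 152 CPM (log2 fold change -0.58 ± 0.04, edgeR adjusted p = 2.01e-11). FOS, the AP-1 subunit, was named after its values were seen and fell from 123 and 129 CPM to 86.9 and 85.2 CPM (log2 fold change -0.55 ± 0.04, edgeR adjusted p = 6.46e-10). DUSP4, a phosphatase of MAP kinases, rose from 169.7 and 167 CPM to 215 and 214 CPM (log2 fold change 0.35 ± 0.04, edgeR adjusted p = 7.35e-08). The promoter of EGR1 is shown because serum response factor acts through CArG boxes there. In the 250 bases before its RefSeq start 2 matches to the CArG box were found on scanning both strands, and the one nearest the start is in capitals:
EGR1 (chr5:138465386-138465415, plus strand, GRCh38.p14): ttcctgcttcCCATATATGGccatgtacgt
A CArG box stood in 6.90% of 29 promoters of 23 genes of this list and in 1.29% of all 35116 RefSeq promoters of the same 300 bases. Most immediate early promoters in the table thus had no such letters.

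Growth factor genes were divided, 5 of 26 higher and 5 lower; 2 rose without shMETTL14 culture 2. IGF2, a fetal insulin-like growth factor, had 299 and 275 CPM in the sh-NC libraries and 664 and 627 CPM in the shMETTL14 libraries. It rose 2.25-fold in libraries that did not overlap (log2 fold change 1.17 ± 0.04, edgeR adjusted p = 1.39e-16), and 23.4% of its exonic bases are shared with the read-through gene INS-IGF2. RET, the receptor of glial-derived neurotrophic factors, fell from 555 and 581 CPM to 481 and 485 CPM (log2 fold change -0.23 ± 0.03, edgeR adjusted p = 5.79e-06). PTN, a heparin-binding cytokine that signals through ALK and a phosphatase receptor, fell from 536 and 527 CPM to 394 and 384 CPM (log2 fold change -0.45 ± 0.03, edgeR adjusted p = 1.68e-10), and FGFR2 fell by 1.11 on the log2 scale (edgeR adjusted p = 4.53e-05). In the PI3K, AKT and mTOR list 12 of 32 members rose and 4 fell, with 6 rises left without shMETTL14 culture 1 and 7 without culture 2. Without the filter on low counts 4 rose and 3 fell. PIK3R3, a regulatory subunit of PI3K, rose from 59.7 and 56.9 CPM to 111 and 114 CPM (log2 fold change 0.95 ± 0.05, edgeR adjusted p = 1.58e-13). DEPTOR, an inhibitor of mTOR, fell from 132 and 132 CPM to 98.9 and 95.6 CPM (log2 fold change -0.44 ± 0.04, edgeR adjusted p = 1.25e-08).

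For the Notch pathway 5 of 15 members fell and 2 rose. HES1, the repressor that Notch induces, fell from 20.7 and 20.9 CPM to 13.8 and 14 CPM (log2 fold change -0.58 ± 0.08, edgeR adjusted p = 7.38e-06), and the receptor NOTCH3 fell from 15.6 and 15.4 CPM to 10.2 and 10.9 CPM (log2 fold change -0.56 ± 0.09, edgeR adjusted p = 6.97e-05). HEY1, another such repressor, rose from 30.5 and 32.6 CPM to 39.9 and 40.1 CPM (log2 fold change 0.34 ± 0.06, edgeR adjusted p = 0.000149). In the Wnt list 4 of 27 members fell, close to the share of all members. DKK1, a secreted Wnt inhibitor, fell from 105 and 105 CPM to 72.2 and 69.1 CPM (log2 fold change -0.57 ± 0.04, edgeR adjusted p = 7.06e-10), and FZD3, a Frizzled receptor, fell from 22.8 and 23.8 CPM to 16.5 and 14.7 CPM (log2 fold change -0.58 ± 0.08, edgeR adjusted p = 8.28e-06).

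DNA replication and nucleotide synthesis genes fell widely: 34 of 50 fell, 1 rose and 15 did not pass, with a median log2 change of -0.26. RRM2, the small subunit of ribonucleotide reductase, had 254 and 254 CPM in the sh-NC libraries and 157 and 159.8 CPM in the shMETTL14 libraries. The arms did not overlap and the fall was 1.60-fold (log2 fold change -0.68 ± 0.04, edgeR adjusted p = 6.89e-13). POLE2, a subunit of DNA polymerase epsilon, fell from 16.7 and 15.7 CPM to 10.9 and 10.8 CPM (log2 fold change -0.58 ± 0.09, edgeR adjusted p = 3.76e-05). DUT, which removes dUTP and shares 14.5% of its exonic bases, fell from 105 and 105 CPM to 68.7 and 74.4 CPM (log2 fold change -0.55 ± 0.05, edgeR adjusted p = 2.84e-09). MCM3, a helicase subunit and the member of highest CPM, fell from 639 and 628 CPM to 567 and 527 CPM (log2 fold change -0.21 ± 0.03, edgeR adjusted p = 4.68e-05), as did its partner MCM2 by 0.27 and the sliding clamp PCNA by 0.35 on the log2 scale, both named after their values were seen. The 1 member that rose was another helicase subunit, MCM6, from 81.1 and 81.7 CPM to 92.3 and 94.7 CPM (log2 fold change 0.20 ± 0.04, edgeR adjusted p = 0.00122).

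E2F factors drive these genes at the start of S phase, so their promoters were scanned for the words TTTCCCGC and TTTGGCGC on both strands, and a promoter counted once however many words it held. Of 58 promoters of 43 genes of the list 18 (31.0%) held a word, of 16291 promoters of all members 3.14%, and of all 35116 RefSeq promoters 2.27%. In the G1 list the share was 18.5% of 27 promoters and in the mitosis list 4.55% of 44. The windows of 3 list members that fell and held a word before the start are printed as examples, with the word in capitals:
DUT (chr15:48332159-48332188, plus strand): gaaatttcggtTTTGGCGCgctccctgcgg
TYMS (chr18:657603-657632, plus strand): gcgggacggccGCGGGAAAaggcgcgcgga
RFC3 (chr13:33818083-33818112, plus strand): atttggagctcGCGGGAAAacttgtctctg
They come from RefSeq, GRCh38.p14, and in TYMS and RFC3 the word lies on the opposite strand. TYMS, thymidylate synthase, and RFC3, a clamp loader subunit, are named for these windows after their values were seen and fell by 0.49 and 0.46 on the log2 scale. Across all 483 members with a word in a promoter, 24.2% fell and 13.5% rose, against 16.7% and 15.3% of the 11167 members with any promoter in the table. The 483 include the 18 genes of this list with a word, and the shares are not matched for level. Whether E2F had a part in the falls was not tested. A match describes letters, not binding.

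Most mitotic genes were not called lower. In that list 14 of 41 members fell, 9 without either shMETTL14 culture and 5 without the filter on low counts, and 1 rose, with a median of -0.09. TOP2A, the topoisomerase that untangles sister chromatids, had 383 and 367 CPM in the sh-NC libraries and 226 and 233 CPM in the shMETTL14 libraries and fell 1.64-fold (log2 fold change -0.71 ± 0.04, edgeR adjusted p = 2.41e-13). MAD2L1, a spindle checkpoint protein, fell from 69.2 and 64.8 CPM to 49.5 and 51.7 CPM (log2 fold change -0.41 ± 0.05, edgeR adjusted p = 1.95e-06), and CDK1, the mitotic kinase, fell from 68.9 and 67.0 CPM to 53.5 and 54.5 CPM (log2 fold change -0.33 ± 0.05, edgeR adjusted p = 1.36e-05). PRC1, a spindle midzone protein, was the member that rose (0.14 ± 0.03 on the log2 scale). Among 26 G1 regulators 8 fell and 3 rose, the falls numbering 5, 5 and 3 without shNC culture 1, shMETTL14 culture 1 and shMETTL14 culture 2. Without the filter on low counts 3 fell and 3 rose. CCND1, cyclin D1, fell from 806 and 816 CPM to 571 and 575 CPM (log2 fold change -0.50 ± 0.03, edgeR adjusted p = 8.15e-12). CCNE1, cyclin E1, rose from 14.9 and 14.7 CPM to 24.6 and 28.7 CPM (log2 fold change 0.85 ± 0.08, edgeR adjusted p = 3.66e-08), and CDKN2D, an inhibitor of CDK4 and CDK6, rose 2.07-fold, from 6.79 and 7.20 CPM to 14.3 and 14.7 CPM (log2 fold change 1.05 ± 0.10, edgeR adjusted p = 3.91e-08).

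Survival genes moved both ways. For p53 and its targets 8 of 23 fell and 6 rose, the falls numbering 3 and 5 without shMETTL14 culture 1 and culture 2. TP53I3, an oxidoreductase induced by p53, rose from 29.4 and 31.1 CPM to 57.7 and 59.4 CPM (log2 fold change 0.95 ± 0.06, edgeR adjusted p = 7.56e-12). ZMAT3, an RNA-binding p53 target, fell from 15.9 and 15.7 CPM to 7.37 and 8.48 CPM (log2 fold change -1.0 ± 0.10, edgeR adjusted p = 6.78e-08), and MDM2, the ligase that degrades p53, fell from 63.3 and 62.8 CPM to 45.5 and 43.5 CPM (log2 fold change -0.50 ± 0.05, edgeR adjusted p = 7.25e-08). In the BCL2 family list 6 of 21 fell and 3 rose, which became 4 and 2 without either shMETTL14 culture. BCL2, the anti-apoptotic founder of the family, fell from 46.0 and 46.4 CPM to 26.4 and 30.2 CPM (log2 fold change -0.71 ± 0.06, edgeR adjusted p = 1.25e-08), and BMF, a pro-apoptotic member, fell from 32.7 and 31.0 CPM to 19.1 and 19.7 CPM (log2 fold change -0.72 ± 0.07, edgeR adjusted p = 3.27e-08). MCL1, an anti-apoptotic relative, fell by 0.27 on the log2 scale (edgeR adjusted p = 3.28e-06).

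Cholesterol synthesis genes were lower in 17 of 27 cases and higher in 1, with a median of -0.22; the falls numbered 11 without shMETTL14 culture 1. STARD4, a carrier of sterols between membranes, had 49.9 and 48.2 CPM in the sh-NC libraries and 28.5 and 26.2 CPM in the shMETTL14 libraries and fell 1.79-fold (log2 fold change -0.84 ± 0.06, edgeR adjusted p = 2.53e-10). FDFT1, squalene synthase, fell from 192 and 187 CPM to 137 and 139 CPM (log2 fold change -0.46 ± 0.04, edgeR adjusted p = 1.71e-09). SREBF2, the transcription factor that drives the pathway, fell from 203 and 217 CPM to 161 and 156 CPM (log2 fold change -0.41 ± 0.04, edgeR adjusted p = 3.2e-08), and HMGCS1, the enzyme of highest CPM in the list (15% of exonic bases shared), fell from 272 and 269 CPM to 208 and 213 CPM (log2 fold change -0.36 ± 0.03, edgeR adjusted p = 2.6e-08). Promoters were at hand for 21 genes of the list, 27 promoters in all. SREBF2 was the 1 list promoter of 27 (3.70%, against 1.13% of all) that held the sterol regulatory word TCACNCCAC on either strand, in capitals here:
SREBF2 (chr22:41832962-41832991, plus strand, GRCh38.p14): tgacgcgccaTCACCCCACgcaccgcttcg

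Hypoxia and glycolysis genes leaned upward. Of 12 hypoxia response members 7 rose and 1 fell, with a median of 0.26. VEGFA, the endothelial growth factor, rose from 236 and 229 CPM to 312 and 306 CPM (log2 fold change 0.41 ± 0.03, edgeR adjusted p = 2.52e-09), NDRG1, a stress-response gene, rose from 30.8 and 30.3 CPM to 48.4 and 48.3 CPM (log2 fold change 0.66 ± 0.06, edgeR adjusted p = 4.74e-09), and KDM3A, a histone demethylase induced by low oxygen, rose from 70.3 and 65.8 CPM to 90.7 and 87.5 CPM (log2 fold change 0.39 ± 0.05, edgeR adjusted p = 1.03e-06). For glycolysis 10 of 24 rose and 4 fell, the falls numbering 2 without shNC culture 2 or either shMETTL14 culture. ENO2, the neuronal enolase, rose from 89.0 and 88.5 CPM to 129.9 and 127 CPM (log2 fold change 0.53 ± 0.04, edgeR adjusted p = 6.2e-10), while SLC2A3, a glucose transporter, fell from 47.7 and 45.3 CPM to 38.2 and 35.8 CPM (log2 fold change -0.33 ± 0.06, edgeR adjusted p = 0.000153). GAPDH had 1539 and 1528 CPM in the sh-NC libraries and 1625 and 1584 CPM in the shMETTL14 libraries and was not called.

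Stress programmes did not move as blocks. Of 39 ATF4 target and serine synthesis members 15 fell and 9 rose, the falls numbering 10 without either shMETTL14 culture and the rises 5 and 4. SLC7A1, a transporter of cationic amino acids, fell from 74.0 and 74.6 CPM to 50.1 and 45.9 CPM (log2 fold change -0.63 ± 0.05, edgeR adjusted p = 1.78e-09), and SLC7A11, the cystine importer, fell from 18.1 and 17.6 CPM to 12.4 and 11.4 CPM (log2 fold change -0.58 ± 0.09, edgeR adjusted p = 2.41e-05). SESN2, a leucine sensor, rose from 11.4 and 13.3 CPM to 20.1 and 20.2 CPM (log2 fold change 0.70 ± 0.09, edgeR adjusted p = 1.82e-06). In the unfolded protein response list 8 of 22 members rose and 4 fell, the rises numbering 4 and 5 and the falls 1 and 2 without shMETTL14 culture 1 and culture 2. HYOU1, a chaperone of the endoplasmic reticulum, rose from 568 and 559 CPM to 696 and 704 CPM (log2 fold change 0.31 ± 0.03, edgeR adjusted p = 3.01e-08). Among 23 heat shock chaperones 7 rose and 5 fell, the rises numbering 4 and 3 and the falls 2 and 3 without the same cultures. HSP90AB1, the constitutive cytosolic HSP90, rose from 4262 and 4170.1 CPM to 4955 and 4967 CPM (log2 fold change 0.23 ± 0.03, edgeR adjusted p = 1.6e-07).

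Cytosolic ribosomal protein genes fell by small amounts, 46 of 77 with 1 rising and a median log2 change of -0.12. Without shMETTL14 culture 1 there were 26 falls and without culture 2 there were 32. RPL6 stood apart from the rest, from 633 and 618 CPM to 387 and 403 CPM, a 1.58-fold fall (log2 fold change -0.66 ± 0.03, edgeR adjusted p = 2.01e-13). RPL3, the member of highest CPM, fell from 1920.5 and 1933 CPM to 1705 and 1724 CPM (log2 fold change -0.17 ± 0.03, edgeR adjusted p = 4.72e-05) and RPS13 fell from 128 and 127 CPM to 102 and 96.5 CPM (log2 fold change -0.36 ± 0.04, edgeR adjusted p = 4.39e-07). Ribosomal protein genes have many processed pseudogenes, and how reads matching several copies were counted is not given in the sources used here. Of 1199 members that RefSeq calls pseudogenes, 6.26% fell and 1.67% rose.

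Of the 13 mitochondrially encoded mRNAs 8 fell and 0 rose, with a median of -0.10; without shMETTL14 culture 2 the falls were 5. MT-CO2, a subunit of cytochrome c oxidase, had 2815 and 2718 CPM in the sh-NC libraries and 2435 and 2264 CPM in the shMETTL14 libraries (log2 fold change -0.24 ± 0.03, edgeR adjusted p = 3.69e-06). All mitochondrial mRNAs together took 4.82% and 4.75% of counts in the controls and 4.55% and 4.43% after knockdown. The nuclear-encoded respiratory chain was mostly not called, 62 of 76 members, with 5 higher and 9 lower. Mitochondrial ribosomal proteins had 7 higher and 8 lower of 77, and proteasome subunits 5 higher and 1 lower of 34; these shares were near or below those of all members. Translation factors had 11 lower and 6 higher of 48. Without shMETTL14 culture 1 the higher and lower calls of these 4 groups were 5 and 3, 1 and 3, 3 and 1, and 1 and 7, and without culture 2 they were 2 and 3, 1 and 5, 3 and 1, and 2 and 5; mitochondrial ribosomal proteins had 4 and 4 without shNC culture 1. EEF1A2, the neuronal and muscle form of the elongation factor, rose from 197 and 205 CPM to 278 and 272 CPM (log2 fold change 0.45 ± 0.04, edgeR adjusted p = 9.34e-10), and EIF1AX, an initiation factor of start codon scanning, fell from 75.5 and 71.3 CPM to 52.7 and 56.6 CPM (log2 fold change -0.43 ± 0.05, edgeR adjusted p = 8.9e-07).

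Chromatin regulators rose more often than they fell, 27 of 66 against 7, with a median of 0.07. CHD5, a neuronal remodeler on a chromosome arm often lost in neuroblastoma, rose from 9.67 and 7.57 CPM to 18.5 and 18.7 CPM (log2 fold change 1.11 ± 0.10, edgeR adjusted p = 1.58e-08). KDM6B, a histone H3 demethylase, rose from 82.1 and 80.7 CPM to 124 and 128 CPM (log2 fold change 0.63 ± 0.04, edgeR adjusted p = 6.54e-11), and SMARCA4, the ATPase of the BAF remodeler and the gene of highest CPM in the list, rose from 1235 and 1230.2 CPM to 1361 and 1394 CPM (log2 fold change 0.16 ± 0.03, edgeR adjusted p = 0.000143). NSD1, a histone methyltransferase, fell from 153 and 152 CPM to 102 and 98.4 CPM (log2 fold change -0.61 ± 0.04, edgeR adjusted p = 4.33e-11), as did TET2, which oxidises methylcytosine, from 63.7 and 66.4 CPM to 45.8 and 44.6 CPM (log2 fold change -0.52 ± 0.05, edgeR adjusted p = 3.28e-08). Zinc finger genes with a ZNF name were called seldom, 41 of 500 higher and 17 lower. Their rises numbered 26 and 18 and their falls 12 and 10 without shMETTL14 culture 1 and culture 2, and 9 and 6 without the filter on low counts. ZNF664 fell from 181 and 183 CPM to 119 and 120.5 CPM (log2 fold change -0.60 ± 0.04, edgeR adjusted p = 2.12e-11). Splicing factors were evenly split, 12 higher and 12 lower of 55, or 5 and 8 without either shMETTL14 culture; MBNL3, a regulator of alternative exons, fell from 8.19 and 8.33 CPM to 4.43 and 4.15 CPM (log2 fold change -0.94 ± 0.13, edgeR adjusted p = 6.43e-06), and MBNL2 fell from 82.1 and 79.9 CPM to 58.7 and 60.9 CPM (log2 fold change -0.44 ± 0.05, edgeR adjusted p = 1.42e-07).

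No immune list had a member that rose. Of 29 interferon-stimulated genes 6 fell, 1 without the filter on low counts. Of 15 MHC class I presentation genes 5 fell, 3 without shMETTL14 culture 2 and 2 without the filter. The immune marker sum moved the same way (18.8 to 22.2 CPM in controls, 14.4 to 16.6 CPM after knockdown), and its part in these falls was not tested. Most of that sum was CD68, which shares 85.8% of its exonic bases with other genes. B2M, the light chain of every class I molecule, fell from 243 and 236 CPM to 189 and 184 CPM (log2 fold change -0.36 ± 0.04, edgeR adjusted p = 5.2e-08) and HLA-E fell from 45.6 and 45.0 CPM to 31.6 and 33.8 CPM (log2 fold change -0.47 ± 0.06, edgeR adjusted p = 1.63e-06).

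Of 26 well-known long noncoding RNAs 8 fell and 3 rose, the falls numbering 3 and 5 without shMETTL14 culture 1 and culture 2. MEG3, an imprinted noncoding RNA, rose from 172 and 173 CPM to 275 and 270.1 CPM (log2 fold change 0.66 ± 0.04, edgeR adjusted p = 8.76e-13). MIAT, a neuronal nuclear noncoding RNA, rose from 72.8 and 70.8 CPM to 103 and 106 CPM (log2 fold change 0.54 ± 0.04, edgeR adjusted p = 1.78e-09) but shares 26.3% of its exonic bases. OIP5-AS1, a cytoplasmic noncoding RNA, fell from 131 and 129 CPM to 85.6 and 86.2 CPM (log2 fold change -0.60 ± 0.04, edgeR adjusted p = 8.13e-11). MALAT1, a nuclear speckle RNA and the member of highest CPM, fell by 0.13 on the log2 scale (edgeR adjusted p = 0.00197), a call lost without shMETTL14 culture 1 (-0.08, edgeR adjusted p = 0.183).

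**Figure D2:**
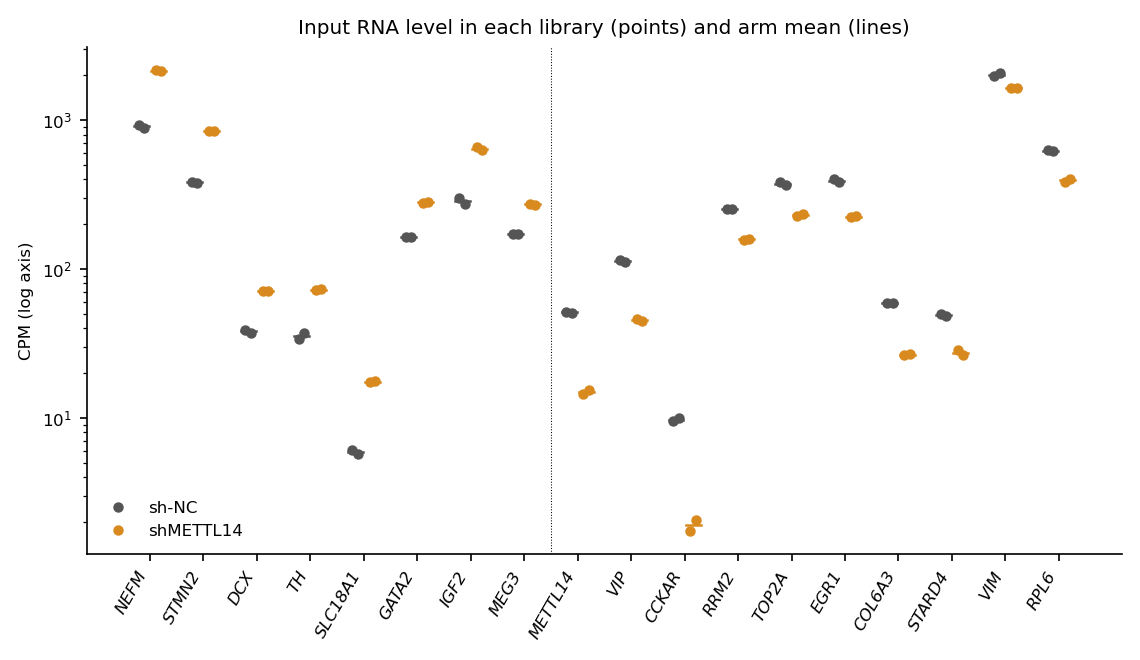
Points are the 2 libraries of each arm (grey sh-NC, orange shMETTL14) and short lines their mean, for 18 named genes on a log axis of CPM; genes left of the dotted line rose and genes right of it fell. In all 18 genes the distance between arms exceeds the distance between the libraries of an arm.

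Among genes that averaged 100 counts or more and shared under 10% of exonic bases, the 12 largest rises were those of ABCA12, SPTSSB, SLC18A1, SULF2, TNNT2, PDE4C, PHYHIP, DCN, LINC00634, FNDC5, MIR137HG and NSG1. They ran from 4.34-fold for ABCA12, a lipid transporter (from 1.63 and 1.94 CPM to 7.59 and 7.93 CPM, log2 fold change 2.12 ± 0.16, edgeR adjusted p = 5.38e-10), to 2.35-fold for NSG1, a neuronal endosomal protein (from 41.1 and 41.6 CPM to 96.3 and 98.1 CPM, log2 fold change 1.23 ± 0.05, edgeR adjusted p = 3.47e-15). NSG1 was the highest in CPM of the 12, and the others were under 50 CPM in every library. SULF2, a sulfatase that edits heparan sulfate outside the cell, rose from 5.16 and 6.19 CPM to 16.2 and 16.6 CPM (log2 fold change 1.53 ± 0.11, edgeR adjusted p = 1.91e-10). DCN, the proteoglycan decorin, rose from 17.4 and 16.4 CPM to 43.1 and 41.6 CPM (log2 fold change 1.33 ± 0.07, edgeR adjusted p = 4.92e-13). MIR137HG, the host transcript of a neuronal microRNA, rose from 5.45 and 5.15 CPM to 12.2 and 12.7 CPM (log2 fold change 1.23 ± 0.11, edgeR adjusted p = 1.36e-08).

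The 12 largest falls under the same conditions were those of CCKAR, SPP1, METTL14, VDAC1, TMEM19, DEPDC1, ODAM, TIMP3, THOC7, FXYD5, ANO6 and LINC01468. SPP1, the secreted phosphoprotein osteopontin, fell from 12 and 11.3 CPM to 2.94 and 3.45 CPM (log2 fold change -1.86 ± 0.13, edgeR adjusted p = 1.68e-10). VDAC1, the channel of the outer mitochondrial membrane, fell from 272 and 260.0 CPM to 75.9 and 80.2 CPM (log2 fold change -1.77 ± 0.04, edgeR adjusted p = 2.64e-19). ODAM, an epithelial secreted protein, fell from 163 and 149 CPM to 58.5 and 57.0 CPM (log2 fold change -1.43 ± 0.05, edgeR adjusted p = 1.39e-16). ANO6, a phospholipid scramblase of the plasma membrane, fell from 149.5 and 149 CPM to 60.1 and 56.2 CPM (log2 fold change -1.36 ± 0.04, edgeR adjusted p = 1.39e-16), and THOC7, a subunit of the mRNA export complex THO, fell from 69.1 and 66.8 CPM to 26.1 and 25.5 CPM (log2 fold change -1.40 ± 0.06, edgeR adjusted p = 5.79e-15). TIMP3, an inhibitor of matrix metalloproteinases, fell from 6.23 and 6.13 CPM to 2.03 and 2.60 CPM (log2 fold change -1.42 ± 0.17, edgeR adjusted p = 5.86e-07). In each of these genes both knockdown libraries were under both controls, as in every gene called lower.

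The genes of highest CPM that changed did so by small steps. Those that rose were HSP90AB1, PTMA, EEF2, TMSB10 and MAP1B, by 0.08 (EEF2) to 0.23 (HSP90AB1) on the log2 scale. Those that fell were MT-RNR2, MT-CO1, MT-ND4, NCL and MT-ATP6. MT-RNR2, the large mitochondrial ribosomal RNA, fell from 18825 and 18392 CPM to 17416 and 16745 CPM (log2 fold change -0.12 ± 0.02, edgeR adjusted p = 0.000464), a call lost without shMETTL14 culture 2 (-0.10, edgeR adjusted p = 0.0707). NCL, the nucleolar protein nucleolin, fell from 5241 and 5017 CPM to 4812 and 4761 CPM (log2 fold change -0.10 ± 0.03, edgeR adjusted p = 0.00699), which was lost without either shMETTL14 culture (edgeR adjusted p = 0.0777 and 0.119). The rise of TMSB10 was lost without them too (edgeR adjusted p = 0.0831 and 0.161), and that of EEF2 without them and without shNC culture 1 (edgeR adjusted p = 0.252, 0.130 and 0.0738). PTMA lost its call without shMETTL14 culture 1 (edgeR adjusted p = 0.170), and MT-CO1 and MT-ATP6 lost theirs without shMETTL14 culture 2 (edgeR adjusted p = 0.115 and 0.116).

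How often a gene was called went with how precisely it was measured. In the lowest of 5 equal bins of mean level 1.58% of genes rose and 1.72% fell, with a median SE of 0.40. In the highest bin 24.8% rose and 23.8% fell, with a median SE of 0.04. Protein-coding members were called more often, 15.7% higher and 17.1% lower of 13570, than the 865 long noncoding RNAs, 9.13% and 8.55%. Median changes by chromosome spanned a narrow range, from -0.05 on chromosome 13, where 6.36% of 346 genes rose and 16.8% fell, to 0.04 on chromosome 19, where 12.7% of 1413 rose and 5.94% fell. Because 10331 members share exonic bases with another gene and the assignment of reads in shared bases is not given in the sources used here, 1140 calls belong to genes with at least 10% of their exonic bases shared, and those values are uncertain.

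The IP libraries of the same cultures gave a separate reading of these genes. They share the cultures with the inputs, so their values are set side by side only. NEFM changed by 1.24 in input and 1.15 in IP on the log2 scale, STMN2 by 1.14 and 1.07, and GATA2 by 0.77 and 0.74. EGR1 changed by -0.80 in input and -0.84 in IP, RRM2 by -0.68 and -0.69, and STARD4 by -0.84 and -0.71. Other genes changed less in IP than in input. LINC00634, which had the widest gap among the named genes that were called, changed by 1.31 in input and 0.41 in IP, FZD3 by -0.58 and -0.23, and MBNL2 by -0.44 and -0.21. HSP90AB1 changed by 0.23 in input and by 0.09 in IP, where it was not called (edgeR adjusted p = 0.144).

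To set RNA change against baseline methylation signal, 19702 members with IP values were ranked by IP over input CPM in sh-NC culture 1, and the change was taken against sh-NC culture 2 so that no library entered both. Median log2 change went from -0.05 in the bin of lowest IP over input to 0.05 in the highest, a difference of 0.10. With the cultures exchanged it went from -0.02 to 0.02, a difference of 0.04.

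**Figure D3:**
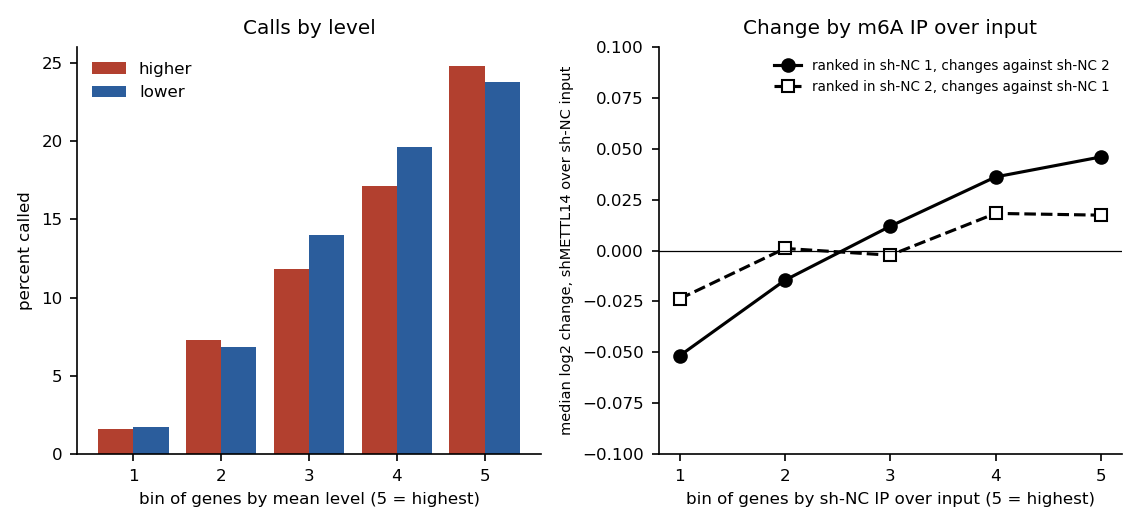
Left, the percent of genes called higher (red) and lower (blue) in 5 equal bins of mean input level. Right, the median log2 change of input RNA in 5 equal bins of sh-NC IP over input CPM, ranked in 1 control culture and measured against the other; the lines climb from below to above 0, more steeply for culture 1 (filled) than for culture 2 (open).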

How the data were processed

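m6A immunoprecipitation sequencing (MeRIP-seq) of SK-N-BE(2) lines, sh-NC or shMETTL14, gave 8 libraries: input and IP from 2 cultures per arm. The authors deposited 1 table of raw counts per gene, with exon coordinates and gene length. Per the labels' processing notes reads were trimmed with Trimmomatic 0.36 and the build was GRCh38; the counting tool, its strand setting, its annotation and the handling of molecular identifiers are not given in the sources used here. Each column was matched to a sample by its title, and no column was left out.

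The 4 input columns were fitted on their own in edgeR 4.0.16 (R 4.3.3): filterByExpr, TMM factors (0.993 to 1.00), glmQLFit and glmQLFTest of shMETTL14 against sh-NC, with Benjamini-Hochberg adjustment over all 22245 genes tested and a threshold of 0.05. All 20312 members, genes with at least 10 counts in each input library, passed the filter. The SE is the absolute log2 fold change over the square root of F. Over all tested genes 11.7% rose and 12.3% fell. On simulated counts with the depths of the 4 inputs, 96.5%, 75.0% and 42.5% of 200 genes changed by 1, 0.5 and 0.25 on the log2 scale were recovered among 22245 genes. The changed genes were drawn only from those with a higher expected count than the entry rule asks. Their spread followed the trend with level, and far fewer genes were changed than were called in the data. These rates therefore do not describe members of low count. The IP columns were fitted apart with the same settings. Total counts were 34550154 to 40381516 per input library, and the median SE ran from 0.40 in the lowest bin of level to 0.04 in the highest. Between replicate libraries the chi-square per gene was 2.93 for sh-NC and 2.73 for shMETTL14, against 1 for counts that are independent. Whether the mates of a read pair were counted singly is not given in the sources used here. How far the replicates differed beyond sampling noise is therefore uncertain.

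Genes named in the text were METTL14; the called members with the 12 greatest rises and 12 greatest falls, provided they averaged 100 counts or more, moved in 1 direction in both same-numbered pairs and shared under 10% of exonic bases with another gene; the 5 most abundant called members in each direction under the same conditions; and, in each list, up to 3 called members with the largest change in each direction and the most abundant member. Others are marked as named after their values were seen. The genes studied, the lists and the rule were chosen with earlier results of these data known. Promoters (250 bases before to 50 after the start) came from RefSeq, GRCh38.p14. Alternatives were RLE factors, no filter beyond 1 read, DESeq2 1.42.0, library size alone, only genes with at least 10 counts in each input, a log2 change of at least 1, only genes with no shared exonic base, the replicate number as a block, and each input library left out. Values of a few genes that the naming rule would list are not reported here.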

Additional observations from a re-analysis of the deposited data

How the results depend on the processing

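With RLE factors, library size alone, DESeq2, or genes with at least 10 counts in each input only, the counts of genes that rose and fell stayed within 1.5 times of 2545 and 2681 (DESeq2 gave 1833 and 2016, with 5176 adjusted p-values not given). Without a filter beyond 1 read 1074 rose and 1070 fell; each of these 2144 genes was also called in the filtered fit. Among genes with no shared exonic base, 9981 of the members, 1233 rose and 1414 fell, fewer because fewer genes were tested. Requiring a log2 change of at least 1 left 118 and 127, and then 7 function lists had more members lower and 5 more higher. Leaving out 1 library gave 1464 to 2349 rises and 1692 to 2710 falls from 3 libraries, where the lone library of an arm is assumed to vary like the other arm. METTL14 stayed between -1.84 and -1.74 under every alternative, and no named gene that was called changed sign. Of 285 named genes that were called, 58 lost the call without shMETTL14 culture 1 and 58 without culture 2, 29 and 17 without shNC culture 1 and culture 2, 23 with DESeq2 and 96 without a filter, among them FGFR2, ISL1, MCM3, MT-ND4, PHYHIP and SOX9. Without a filter, the number of members that rose or fell moved by over 1.5 times in 40 of the 44 function lists. It did not for the m6A writer, adrenergic factor, neuronal cytoskeleton (19 rises of 25) and DNA replication (24 falls) lists. No list changed from more rises to more falls or back. In 6 lists an unequal split became equal: 3 and 3 for G1 regulators and for p53 targets, 6 and 6 for axon guidance, 2 and 2 for long noncoding RNAs and for aminoacyl-tRNA synthetases, and 1 and 1 for the respiratory chain. PI3K genes had 4 rises and 3 falls in place of 12 and 4, ZNF-named genes 9 and 6 in place of 41 and 17, and splicing factors 5 and 6 in place of 12 and 12. Falls numbered 23 of 77 ribosomal proteins, 10 of 34 immediate early, 7 of 18 mesenchymal, 9 of 27 cholesterol, 4 TGF-beta, 5 mitotic, 6 ATF4 target, 5 translation factor, 5 mitochondrial mRNA, 2 MHC class I and 1 interferon-stimulated genes. Rises numbered 7 for synaptic vesicle genes and 4 each for ATF4 targets, the unfolded protein response and heat shock chaperones, with 0 falls in the last pair. The cause was not tested. The difference in median change between the highest and lowest bins of IP over input was 0.0411 instead of 0.0977 when ranked in sh-NC culture 2.

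Same-numbered libraries did not deviate together (correlation -0.01 across genes). All tested genes counted alike in this value, those of low count included, so it cannot decide whether same-numbered cultures shared a batch. The labels give only the shared number. With the replicate number as a block 2680 genes rose and 2791 fell, METTL14 was at -1.79, and 5209 of the 5226 calls were shared. The median SE was 0.40 in the lowest bin of level, where changes smaller than that error cannot be told from 0.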
